A study of Mus musculus with 40 samples.

Results

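The strain difference in the colon of mice given VSL#3 was measured on 10 arrays, 5 from BALB/c and 5 from C57BL/6 mice, out of 40 arrays in the series. These 10 were the arrays whose titles name VSL#3, the strain and colon. The 2 deposited tables give these columns to opposite strains, and the level of H2-Ea decided which table was used. VSL#3 is a mixture of live probiotic bacteria. All mice of the series were female, 9 weeks old and specific-pathogen-free, without any engineered allele named in the labels. By gavage 3 times a week for 4 weeks they received VSL#3 in 200 µl of PBS, or PBS without it, and colon and small intestine of each mouse were measured. The 2 groups compared here therefore share the probiotic, the vehicle and the gavage, and differ in strain. The C57BL/6 mice came from Charles River and the BALB/c mice from Janvier, so strain and supplier cannot be told apart. The code in the source name of a sample also differs between the groups, and what it stands for is not given in the labels. The labels do not say which stretch of colon was taken, so the RNA is that of whole tissue. In whole tissue, fewer cells of a type and less RNA per cell cannot be told apart.

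BALB/c and C57BL/6 are inbred laboratory strains with different haplotypes of the major histocompatibility complex (MHC), the region that codes for the class I and class II molecules that show peptides to T cells. C57BL/6 is known to carry a deletion in the promoter of H2-Ea, the alpha chain of the class II molecule I-E, and makes no H2-Ea transcript. In the colon, class I molecules are made by nearly all cells, and class II molecules by antigen-presenting cells and, under interferon-gamma, by the epithelium. The colon epithelium absorbs salt and water, secretes mucus and antimicrobial proteins, and holds scattered hormone-producing cells.

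Between 12513 and 13518 of 25697 probes were detected on each of the 10 arrays (48.7% to 52.6%), and the correlation between 2 arrays of a group lay from 0.976 up to 0.988. Values below are log2 normalized intensities, and a strain difference is the BALB/c minus the C57BL/6 mean with its standard error (SE), from a limma fit over the 20 colon arrays with Benjamini-Hochberg adjusted p-values over all genes tested. A gene passed the test when its adjusted p was under 0.05. Aqp8, the water channel of the colon surface epithelium, lay between 11.07 and 11.49 on the 10 arrays, and Apoa4, an apolipoprotein of the small intestine, was detected on 0 of them. Sis and Fabp6, also genes of the small intestine, were detected on 3 and 5 of 5 BALB/c arrays and on all C57BL/6 arrays. Their means there, 5.29 to 7.54, lay below those in small intestine of VSL#3 mice, 13.28 to 14.04. These levels go with the label of the tissue, although signal of small intestine genes was not absent. H2-Ea was 13.03, 13.09, 12.64, 12.68 and 11.78 in the BALB/c mice and 4.80, 4.84, 4.82, 6.92 and 5.42 in the C57BL/6 mice. The groups stood far apart in the direction that the strain labels give, and 2 of 5 C57BL/6 arrays counted as detected. Since H2-Ea decided which deposited table was used, its direction was fixed in advance and is no separate check of the labels. In a second deposited table, of normalized values, the 5 columns of each of these 2 groups matched the arrays of the other strain best (r of 0.934 against at most 0.904 with their own), while 5 of 5 columns of every other group matched their own arrays. That table was used in no comparison.

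Of 9833 genes tested, 1091 passed the test (11.1%). Of these, 527 were higher in BALB/c (5.36% of all genes) and 564 were higher in C57BL/6 (5.74%). A difference of at least 2-fold with an adjusted p under 0.05 was found for 273 genes (2.78%), 108 of them higher in BALB/c and 165 higher in C57BL/6. The median difference over all genes was 0.01. The groups did not overlap for 977 genes (9.94%), and 795 of these also passed the test (8.09%). The plot of difference against level shows that large differences occurred at low and at high signal in both directions.

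**Figure D1:**
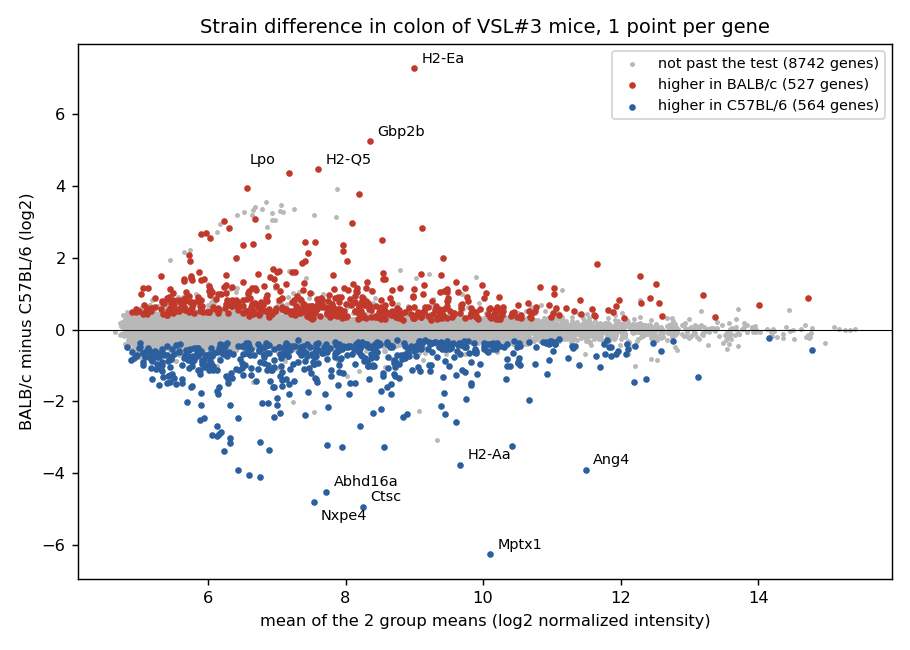
Strain difference of every gene tested (BALB/c minus C57BL/6, log2, vertical axis) against the mean of its 2 group means (log2 normalized intensity, horizontal axis). Red and blue points are the 527 and 564 genes past the test, grey points the others. H2-Ea and Gbp2b lie highest and Mptx1 lowest.

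The members of the MHC class II list did not move in 1 direction. All 12 members of the list were tested, and 6 were higher in BALB/c, 2 were higher in C57BL/6 and 4 did not pass. The 6 include H2-Ab1, whose probes disagree. The list median was 0.98, against 0.01 over all genes, of which 5.36% were higher in BALB/c and 5.74% in C57BL/6. H2-Ea was higher in BALB/c by 7.28 (SE 0.37, adjusted p = 6.07e-12), a size that rests on C57BL/6 values of which 3 of 5 were not detected. Its direction was fixed by the choice of table. H2-Aa, the alpha chain of the other class II molecule, I-A, was 8.24, 8.59, 7.61, 7.51 and 7.001 in the BALB/c mice and 12.37, 12.05, 11.68, 10.79 and 10.85 in the C57BL/6 mice. Here the C57BL/6 values were all above the BALB/c values, with a difference of -3.76 (SE 0.38, adjusted p = 3.05e-07). H2-Aa was read by 1 probe. H2-Ob, a chain of the class II regulator H2-O, was also higher in C57BL/6 (difference -1.37, SE 0.27, adjusted p = 0.00159), with overlap and with 1 of 5 BALB/c arrays detected.

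The brightest probe of H2-Ab1, the beta chain of I-A, gave 13.10, 13.17, 12.67, 12.56 and 11.37 in BALB/c and 11.87, 11.05, 10.92, 10.11 and 9.74 in C57BL/6. The groups overlapped on that probe, and the difference of 1.84 (SE 0.39) passed with an adjusted p of 0.00285. The other 3 probes of H2-Ab1 gave differences of -4.14, 0.53 and 1.37, and the mean of its probes gave -0.10 (adjusted p = 0.916), so no direction is given for this gene. Whether sequence differences between the strains under a probe had a part in this, or in the difference of H2-Aa, was not tested. H2-DMa and H2-DMb1, which help class II molecules load peptide, were higher in BALB/c by 1.33 (adjusted p = 0.0364) and 1.54 (adjusted p = 0.0289). Cd74, the invariant chain that escorts class II molecules, was higher by 1.27 (adjusted p = 0.0368), and H2-Eb1, the beta chain of I-E, by 0.99 (adjusted p = 0.0490). Calls of these 4 genes were lost under 11 (H2-DMa), 7 (H2-DMb1), 9 (Cd74) and 13 (H2-Eb1) of 22 other settings of the analysis, with adjusted p-values of up to 0.107, 0.0860, 0.116 and 0.142. When 1 array was left out, between 2 and 7 class II members passed as higher in BALB/c, with 2 without BALB/c mouse 1, 2 or 3 and without C57BL/6 mouse 4 or 5. Ciita, the switch factor for class II genes, had a difference of 0.96 (adjusted p = 0.0818).

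H2-Aa and H2-Eb1, each read by 1 probe, differed in opposite directions. Both windows around their gene starts hold the class II Y box, an element of class II promoters. The windows run from 250 bases before to 50 bases after the start in the RefSeq annotation of GRCm38.p6, at chr17:34287774-34288073 on the minus strand for H2-Aa and chr17:34305617-34305916 on the plus strand for H2-Eb1. They are shown because these genes share the box and not the direction of the difference. Capitals mark the letters CTGATTGG, searched on both strands, which begin at -51 in H2-Aa and -62 in H2-Eb1, counted from the start of the gene.
H2-Aa: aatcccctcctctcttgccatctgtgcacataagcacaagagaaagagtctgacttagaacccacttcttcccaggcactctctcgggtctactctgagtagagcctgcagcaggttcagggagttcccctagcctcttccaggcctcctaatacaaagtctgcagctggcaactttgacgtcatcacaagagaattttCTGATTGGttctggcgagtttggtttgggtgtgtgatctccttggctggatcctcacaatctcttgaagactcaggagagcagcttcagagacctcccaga
H2-Eb1: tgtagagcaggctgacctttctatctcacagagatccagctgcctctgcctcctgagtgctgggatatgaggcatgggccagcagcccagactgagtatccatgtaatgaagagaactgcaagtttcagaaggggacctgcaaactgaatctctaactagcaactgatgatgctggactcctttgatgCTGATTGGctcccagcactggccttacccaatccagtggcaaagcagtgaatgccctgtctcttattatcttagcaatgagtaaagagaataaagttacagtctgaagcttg
Of the class II list, 4 of 8 tested members with a window in the table held these letters, against 4.32% of 27025 windows. The windows are those of the reference genome, which is a C57BL/6 genome, and a match is a description of letters and not of a bound site.

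Of the MHC class I list, 13 members were tested. In this list 4 were higher in BALB/c, 1 was higher in C57BL/6 and 8 did not pass, with a list median of 0.49. The shares over all genes were 5.36% and 5.74%. The 4 include H2-Q2, whose probes disagree in direction. H2-K1, which codes for a classical class I heavy chain, was 10.34, 10.72, 10.08, 10.19 and 9.08 in BALB/c and 7.10, 6.09, 6.41, 5.95 and 6.00 in C57BL/6. The groups did not overlap, with a difference of 3.77 (SE 0.35, adjusted p = 8.32e-08), but the other probe of H2-K1 gave 0.54. H2-Q2 was detected on 0 of 5 C57BL/6 arrays and was at least 10.6-fold higher in BALB/c (means 8.54 and 4.61, adjusted p = 3.37e-15), while its other probe gave -2.06. H2-Q5 and H2-Q8, like H2-Q2 of the Qa region, were higher in BALB/c by 4.49 (SE 0.27, with 4 of 5 C57BL/6 arrays detected) and 2.44 (SE 0.32), and H2-Q7 was higher in C57BL/6 (difference -0.75, SE 0.19, adjusted p = 0.0117). The call of H2-Q7 was lost with median scaling and without the 3 arrays described at the end, with adjusted p-values of up to 0.0949. H2-D1, the other classical heavy chain tested, differed by 0.13 (adjusted p = 0.796), and B2m, the light chain of all class I molecules, by 0.58 (adjusted p = 0.0834). The H2-Q genes are near-identical copies of each other, so which copy a probe reads is uncertain.

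Genes that type I interferon induces passed the test more often above 0 than below 0. Type I interferons switch on antiviral genes through a promoter element called the interferon-stimulated response element (ISRE). Of 25 members tested, 9 were higher in BALB/c, 1 was higher in C57BL/6 and 15 did not pass, and 23 lay above 0. The list median was 0.73, against 0.01 over all genes, of which 5.36% were higher in BALB/c. Oasl1, an oligoadenylate synthetase-like protein, was 9.20, 9.87, 9.46, 9.48 and 8.64 in BALB/c and 8.30, 7.26, 7.84, 7.87 and 7.495 in C57BL/6. Its groups did not overlap and differed by 1.58 (SE 0.23, adjusted p = 6.03e-05).

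Eif2ak2, the double-stranded RNA kinase PKR, was 10.66, 11.04, 10.57, 10.40 and 10.40 in BALB/c and 9.87, 9.09, 9.40, 9.10 and 9.39 in C57BL/6. It differed by 1.24 (SE 0.17, adjusted p = 1.43e-05), again without overlap. Stat2 and Irf9, which code for factors that act at the ISRE, were higher by 1.07 (SE 0.29, adjusted p = 0.0179) and 0.69 (SE 0.21, adjusted p = 0.0376), and the RNA sensor Ddx58 by 0.73 (SE 0.21, adjusted p = 0.0281). Parp14, Ifi27 and Oas2 were higher by 1.14, 0.62 and 2.01 (adjusted p-values of 0.00353, 0.00284 and 0.0130), with 3 of 5 C57BL/6 arrays detected for Oas2. Isg15, a ubiquitin-like protein, was 8.36, 9.61, 8.59, 8.30 and 6.59 in BALB/c and 7.67, 6.73, 6.56, 5.99 and 5.28 in C57BL/6. The Isg15 groups overlapped, and the difference of 1.84 (SE 0.58) passed with an adjusted p of 0.0461. BALB/c mouse 5 was the lowest of its group for Oasl1, Isg15, Oas2 and Stat2. Trim30a, a TRIM family regulator, went the other way. It was detected on 0 of 5 BALB/c arrays and was at least 4.12-fold higher in C57BL/6 (means 4.63 and 7.14, adjusted p = 4.83e-10).

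When 1 array was left out, between 5 and 16 interferon genes passed as higher in BALB/c, with 5 without BALB/c mouse 1 or 2, and Trim30a passed as higher in C57BL/6 each time. The calls of Isg15, Irf9, Ddx58 and Stat2 were lost under 12, 10, 5 and 3 of 22 other settings, with adjusted p-values of up to 0.125, 0.1002, 0.0804 and 0.0572. Of the genes induced by interferon-gamma, 0 of 14 passed in the limma fit and 3 had an unadjusted p under 0.05. Of these 14 members 12 lay above 0 and the median was 0.74. Ido1 and Ifi47 of that list had differences of 1.55 (SE 0.92, adjusted p = 0.324) and 1.65 (SE 0.71, adjusted p = 0.157). Gbp2b, a guanylate-binding GTPase outside that list, was 11.83, 11.69, 11.01, 10.63 and 9.75 in BALB/c and 7.12, 4.95, 5.36, 6.24 and 4.99 in C57BL/6. It differed by 5.25 (SE 0.44, adjusted p = 1.81e-08), with 3 of 5 C57BL/6 arrays detected. Both tested members of the Ifi200 family, Aim2, a sensor of cytosolic DNA, and Ifi202b, were higher in BALB/c. Aim2 differed by 1.61 (adjusted p = 2.08e-08), and Ifi202b was at least 4.56-fold higher, with 0 of 5 C57BL/6 arrays detected (means 7.32 and 4.63).

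Of the interferon list, 11 of 17 tested members with a promoter window held the ISRE core, which is GAAA, any 2 bases and GAAA again, searched on both strands, against 3.49% of 27025 windows. Of those that passed and had a window, 4 of 6 that were higher in BALB/c and 1 of 1 that was higher in C57BL/6 held it. These 5 windows are shown because they carry the letters shared by genes that differed together and by Trim30a, which differed in the opposite direction. They are, in GRCm38.p6 from RefSeq, chr4:156200769-156201068 on the minus strand for Isg15, chr10:128270248-128270547 on the plus strand for Stat2, chr4:40239776-40240075 on the minus strand for Ddx58, chr17:78882523-78882822 on the minus strand for Eif2ak2, and chr7:104465144-104465443 on the minus strand for Trim30a, which has 2 windows in the table. Capitals mark the matches, of which Isg15 has 3 that overlap and the others 1 each. Counted from the start of the gene, the first matches begin at -222 in Stat2, -78 in Isg15, -36 in Trim30a, 2 in Ddx58 and 18 in Eif2ak2.
Isg15: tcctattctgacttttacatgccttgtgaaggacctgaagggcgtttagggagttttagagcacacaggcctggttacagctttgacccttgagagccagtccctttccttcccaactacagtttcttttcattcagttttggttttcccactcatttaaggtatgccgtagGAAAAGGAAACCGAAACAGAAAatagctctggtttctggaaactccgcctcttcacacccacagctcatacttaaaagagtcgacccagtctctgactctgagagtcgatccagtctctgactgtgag
Stat2: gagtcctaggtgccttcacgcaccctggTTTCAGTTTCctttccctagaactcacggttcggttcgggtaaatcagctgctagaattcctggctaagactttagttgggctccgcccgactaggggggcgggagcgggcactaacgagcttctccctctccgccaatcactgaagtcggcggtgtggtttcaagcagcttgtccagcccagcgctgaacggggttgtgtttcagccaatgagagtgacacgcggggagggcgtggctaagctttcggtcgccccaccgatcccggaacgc
Ddx58: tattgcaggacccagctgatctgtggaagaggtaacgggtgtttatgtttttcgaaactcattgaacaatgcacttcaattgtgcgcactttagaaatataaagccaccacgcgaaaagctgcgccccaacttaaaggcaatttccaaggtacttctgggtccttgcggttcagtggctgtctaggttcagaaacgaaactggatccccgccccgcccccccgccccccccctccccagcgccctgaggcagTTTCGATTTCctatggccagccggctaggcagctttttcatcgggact
Eif2ak2: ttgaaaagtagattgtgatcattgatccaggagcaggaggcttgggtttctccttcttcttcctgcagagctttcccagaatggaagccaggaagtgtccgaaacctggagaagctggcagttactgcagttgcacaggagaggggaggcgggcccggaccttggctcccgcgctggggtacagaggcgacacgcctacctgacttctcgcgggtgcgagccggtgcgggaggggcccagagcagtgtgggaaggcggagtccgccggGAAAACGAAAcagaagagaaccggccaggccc
Trim30a: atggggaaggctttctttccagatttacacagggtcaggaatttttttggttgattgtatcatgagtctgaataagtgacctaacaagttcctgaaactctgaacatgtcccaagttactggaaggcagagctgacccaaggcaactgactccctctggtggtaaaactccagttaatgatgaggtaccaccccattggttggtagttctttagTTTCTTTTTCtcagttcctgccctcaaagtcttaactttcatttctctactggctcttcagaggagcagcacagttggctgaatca
Oasl1 has a window in the table without these letters, which says nothing about the factors that bind there.

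Of the 15 largest differences above 0 without overlap, 11 were in genes outside the class I and class II lists. Lpo, the antibacterial enzyme lactoperoxidase, was 9.22, 9.28, 9.62, 9.17 and 9.53 in BALB/c and 5.13, 4.76, 5.01, 5.19 and 4.91 in C57BL/6. The difference was 4.37 (SE 0.17, adjusted p = 3.95e-14), with 2 of 5 C57BL/6 arrays detected. Chmp1a, of the membrane-scission complex ESCRT-III, and Tmem87a, a transmembrane protein, were higher in BALB/c by 3.09 (with 2 of 5 C57BL/6 arrays detected) and 2.96. Actc1, the cardiac alpha actin, was at least 6.18-fold higher, Afm, the vitamin E carrier afamin, at least 4.29-fold, and Serpina1b, an alpha-1-antitrypsin, at least 4.50-fold, each with 0 of 5 C57BL/6 arrays detected (means of 7.76, 7.23 and 7.30 against 4.72, 4.58 and 4.76). The other probe of Actc1 gave a difference of 1.498. Tpmt, thiopurine methyltransferase, and the scramblase Plscr2 were higher by 2.61 and 2.83 (4 and 1 of 5 C57BL/6 arrays detected), and Ly6g6c, of the Ly6 family of surface proteins, by 2.83. The groups overlapped for none of these 9 genes.

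Among genes higher in C57BL/6, Ctsc, the lysosomal protease cathepsin C, was 5.43, 5.69, 6.23, 5.94 and 5.64 in BALB/c and 10.99, 10.54, 10.83, 10.36 and 10.86 in C57BL/6. It differed by -4.93 (SE 0.17, adjusted p = 5.75e-15), and its other 2 probes gave -3.58 and -3.99. Nxpe4, of the neurexophilin and PC-esterase family, differed by -4.81 (SE 0.16), with 2 of 5 BALB/c arrays detected, and Abhd16a, a phosphatidylserine lipase, by -4.52 (SE 0.14). Fcer1g, the signalling chain shared by Fc receptors, was 4.47, 4.53, 4.54, 4.73 and 4.55 in BALB/c, with 0 of 5 arrays detected, and 9.42, 8.69, 8.89, 8.00 and 8.15 in C57BL/6. It was at least 11.6-fold higher in C57BL/6 (adjusted p = 4.19e-12). Fcgr3, an Fc receptor that uses this chain, was higher in BALB/c by 1.70 (SE 0.19, adjusted p = 1.10e-06). Thumpd1, which assists tRNA acetylation, and Pdrg1 were at least 9.77-fold and 7.10-fold higher in C57BL/6, also with 0 of 5 BALB/c arrays detected (means of 4.48 and 4.55 against 8.39 and 7.93).

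Casp9, the initiator caspase of the mitochondrial death pathway, differed by -3.35 (SE 0.17), with 3 of 5 BALB/c arrays detected. Prcp, a carboxypeptidase, and Psmd8, a proteasome subunit, differed by -3.28 each, with all arrays detected. Tor1aip2 was at least 13.1-fold higher in C57BL/6 by its brightest probe (means 4.71 and 8.81), but its other probes gave -0.68 and -0.11, and the other probe of Rmdn3 gave -0.41 against -3.20.

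**Figure D2:**
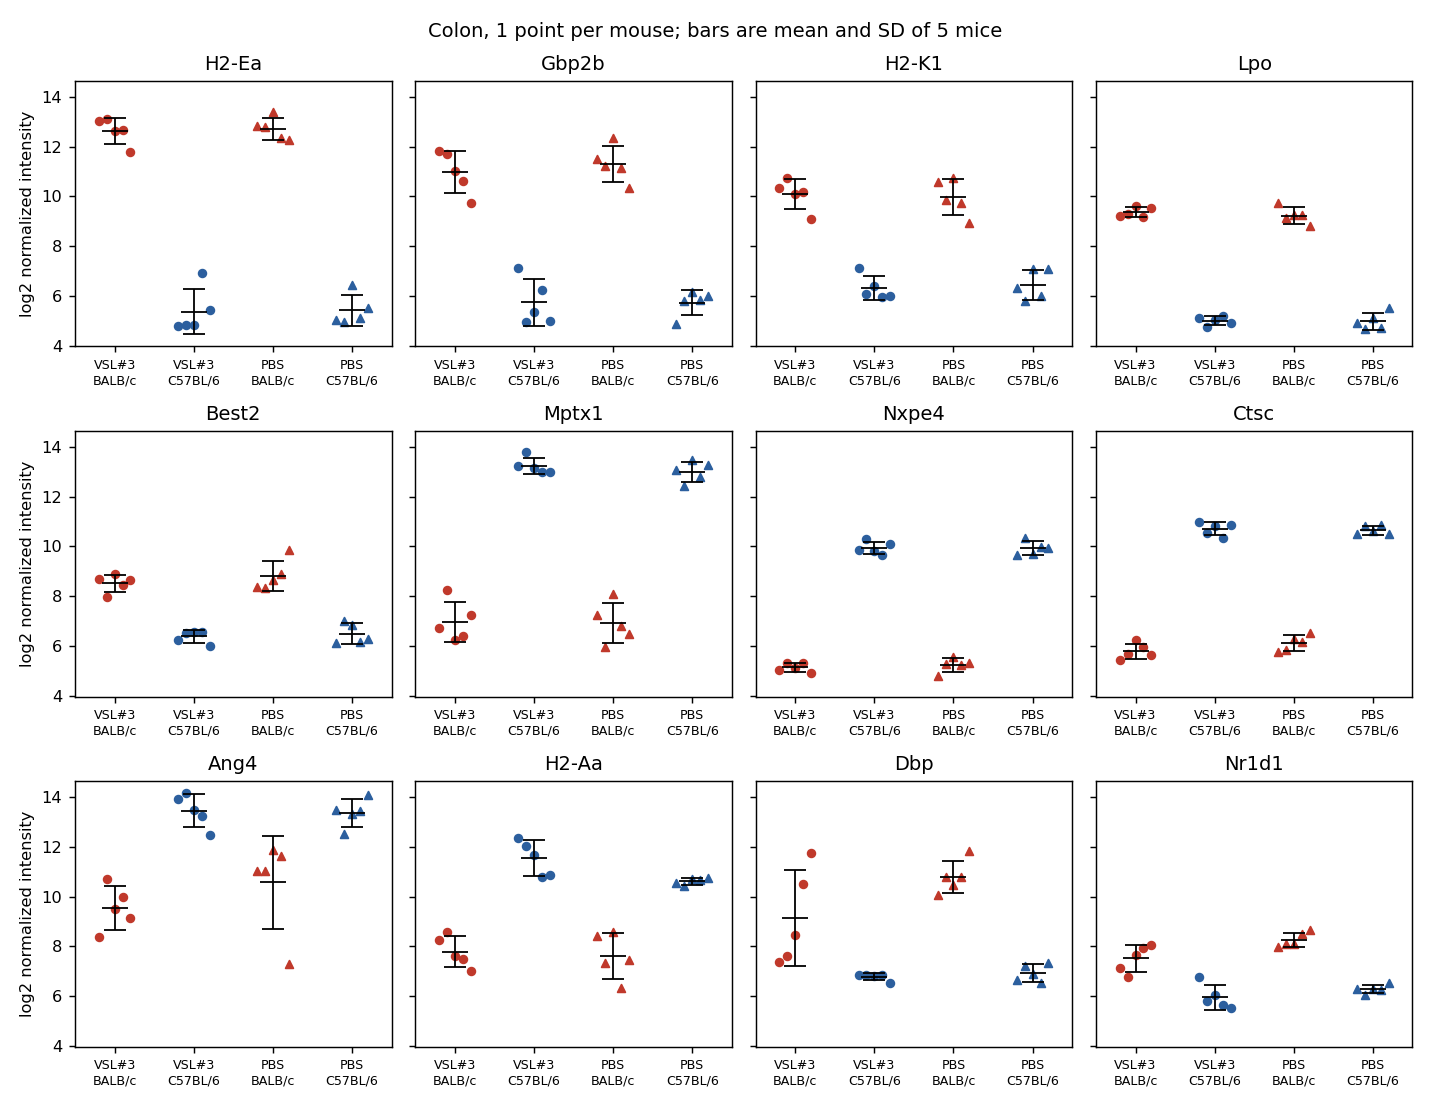
Log2 normalized intensity of 12 genes in the colon of each mouse (vertical axis) by treatment and strain (horizontal axis). Points are mice, and bars are the mean and SD of 5 mice. In the VSL#3 groups the 2 strains do not overlap in any panel, and the BALB/c points of Dbp spread widest, from 7.36 to 11.75.

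Antimicrobial proteins and lectins of the epithelium were lower in BALB/c or did not pass. Of 18 tested, 0 were higher in BALB/c, 5 were higher in C57BL/6 and 13 did not pass, and the list median was -1.02. Of the 18, 6 lay above 0. The shares over all genes were 5.36% higher in BALB/c and 5.74% higher in C57BL/6. When 1 array was left out, 0 to 2 passed as higher in BALB/c and 5 to 7 as higher in C57BL/6. With median scaling these counts were 1 and 5. Mptx1, a mucosal pentraxin, was 6.72, 8.25, 6.22, 6.41 and 7.26 in BALB/c and 13.25, 13.79, 13.15, 13.01 and 13.01 in C57BL/6. Its difference of -6.27 (SE 0.36, adjusted p = 3.89e-11) is 77.0-fold on the linear scale. Ang4, an antibacterial ribonuclease of Paneth and goblet cells, was 8.38, 10.71, 9.50, 9.99 and 9.13 in BALB/c and 13.94, 14.15, 13.48, 13.22 and 12.46 in C57BL/6. It differed by -3.91 (SE 0.63, adjusted p = 1.67e-04), and its relative Ang by -2.31 (SE 0.16, adjusted p = 9.48e-10). Ang and Ang4 are similar in sequence, so their probes may share signal. Sprr2a1, a small proline-rich protein of the epithelium, differed by -3.25 (SE 0.17, adjusted p = 1.47e-11), and its other probe gave -1.96.

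Reg3g, a lectin that kills Gram-positive bacteria, was 4.61, 7.64, 7.66, 6.38 and 4.80 in BALB/c and 9.59, 8.13, 9.00, 8.51 and 7.78 in C57BL/6. The groups did not overlap, with 3 of 5 BALB/c arrays detected and a difference of -2.38 (SE 0.60, adjusted p = 0.0106). The call was lost without the 3 arrays described at the end (difference -1.97, adjusted p = 0.0712). Reg3b, its neighbour, differed by -2.26 (SE 0.83) and did not pass (adjusted p = 0.0905). Among goblet cell genes, 0 of 20 were higher in BALB/c, 2 were higher in C57BL/6 and 18 did not pass. Of all genes, 5.74% were higher in C57BL/6. The 2 became 0 with median scaling and without BALB/c mouse 3 or C57BL/6 mouse 1. Of the inflammasome and gasdermin list, 4 of 12 were higher in C57BL/6 and 0 in BALB/c. These were Pycard, the adaptor of inflammasomes (difference -1.004, adjusted p = 4.32e-05), Gsdmc2 and Gsdmc3, gasdermins of the gut epithelium (-0.99 and -0.63), and Casp8, an initiator caspase (-0.60). Without the 3 arrays described at the end, Pycard and Gsdmc2 passed, and Casp8 and Gsdmc3 had adjusted p-values of 0.0761 and 0.101.

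Transport genes of the colonocyte passed in both directions. Of 23 tested, 3 were higher in BALB/c, 2 were higher in C57BL/6 and 18 did not pass. Of all genes, 5.36% were higher in BALB/c and 5.74% in C57BL/6. Best2, an anion channel of colonic goblet cells, was 8.69, 7.99, 8.87, 8.44 and 8.65 in BALB/c and 6.24, 6.53, 6.58, 6.57 and 6.01 in C57BL/6. It differed by 2.14 (SE 0.25, adjusted p = 2.33e-06). Trpm6, the magnesium channel of the colon, was 8.12, 7.94, 8.10, 7.48 and 7.17 in BALB/c and 9.26, 9.67, 9.46, 9.57 and 9.83 in C57BL/6. It differed by -1.80 (SE 0.22, adjusted p = 4.80e-06), and its other 2 probes gave -1.83 and -1.70. The groups overlapped for neither gene. Guca2b, the peptide uroguanylin that stimulates salt secretion, was higher in BALB/c by 0.98 (adjusted p = 0.00238). The subunits of the epithelial sodium channel ENaC differed in direction, with Scnn1a at -0.63 (adjusted p = 0.00674) and Scnn1b at 0.75 (adjusted p = 0.00776). The call of Scnn1b was lost without the 3 arrays described at the end (adjusted p = 0.102).

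Hormone and granule genes of enteroendocrine cells were higher in BALB/c in 6 of 20 tested members, and 1 member, the secretogranin Scg3, was higher in C57BL/6 (difference -0.51, adjusted p = 0.0405). The list median was 0.23, and the shares of all genes were 5.36% higher in BALB/c and 5.74% higher in C57BL/6. Scg5, a chaperone of prohormone convertase, was 8.52, 8.39, 8.45, 8.38 and 8.26 in BALB/c and 6.69, 7.47, 6.91, 7.73 and 7.52 in C57BL/6, a difference of 1.14 (SE 0.17, adjusted p = 7.75e-05). Pyy, the gut hormone peptide YY, was 12.91, 12.50, 12.81, 12.45 and 12.66 against 11.87, 12.11, 11.93, 11.76 and 11.99. It differed by 0.73 (SE 0.12, adjusted p = 1.49e-04). The groups overlapped for neither gene. Gcg, which codes for glucagon-like peptides, was higher by 0.69 (adjusted p = 0.0135) and Tph1, the enzyme that starts serotonin synthesis, by 0.73 (adjusted p = 0.00688). Chgb, a chromogranin, and Neurog3, the factor that starts enteroendocrine fate, were higher by 0.58 (adjusted p = 0.0256) and 0.83 (adjusted p = 0.0227). Sst, Chga and Cck did not pass. The calls of Chgb, Neurog3 and Scg3 were lost under 6, 4 and 12 of 22 other settings. Without the 3 arrays described at the end, 3 members passed as higher in BALB/c and 0 as higher in C57BL/6, and when 1 array was left out 4 to 7 passed as higher in BALB/c, with 4 without BALB/c mouse 3 or C57BL/6 mouse 3.

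Enzymes that handle reactive and foreign compounds differed in both directions. Of 23 glutathione transferases and relatives, which couple glutathione to such compounds, 2 were higher in BALB/c and 5 in C57BL/6. The shares of all genes were 5.36% and 5.74%. Gstm2 was higher in BALB/c by 0.89 (SE 0.08, adjusted p = 1.12e-07) and Gsta4 by 1.05 (SE 0.16, adjusted p = 6.83e-05). The alpha-class genes Gsta1, Gsta2 and Gsta3 were higher in C57BL/6, with differences of -1.30, -1.30 and -1.36 (SE 0.25, 0.20 and 0.20), as was Gsto1 (difference -0.68). The alpha-class genes are close in sequence, and probes may share signal among them. Gstm3 was detected on 0 of 5 BALB/c and 2 of 5 C57BL/6 arrays and was at least 1.17-fold higher in C57BL/6 (means 4.58 and 5.33, adjusted p = 0.00825). Its call was lost when no background model was used (adjusted p = 0.227).

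Of 14 aldo-keto reductases and enzymes of aldehyde handling, 5 were higher in C57BL/6 and 2 in BALB/c. Cbr3, a carbonyl reductase, was 6.62, 6.92, 7.07, 6.99 and 6.74 in BALB/c and 10, 9.48, 9.52, 9.26 and 9.49 in C57BL/6. It differed by -2.68 (SE 0.16, adjusted p = 5.85e-11), without overlap. Akr1c19, Akr1b8, Cbr1 and Hagh differed by -1.97, -1.003, -0.89 and -0.99, and Adh1, an alcohol dehydrogenase, and Glo1, which detoxifies methylglyoxal, were higher in BALB/c by 0.97 and 0.48. Among cytochromes P450 and conjugating enzymes, 2 of 35 were higher in BALB/c and 7 in C57BL/6, against 5.36% and 5.74% of all genes. Without the 3 arrays described at the end these counts were 0 and 3, and the 2 became 0 without BALB/c mouse 4 or C57BL/6 mouse 5. With median scaling 4 were higher in C57BL/6. Cyp2c65 differed by -2.10 (SE 0.52, adjusted p = 0.0102) with all of the C57BL/6 and 4 of 5 BALB/c arrays detected, and its call was lost without those arrays (adjusted p = 0.0558).

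Lymphocyte genes lay mostly above 0, and most did not pass. The shares higher in BALB/c were 14.29% of B-cell and follicle genes and 20% of T-cell genes, against 5.36% of all genes. Of 21 genes of B cells and follicles, 3 were higher in BALB/c, 0 were higher in C57BL/6, 18 did not pass and 19 lay above 0, with a median of 0.59. Ccr6, a homing receptor, passed with a difference of 1.22 (SE 0.32, adjusted p = 0.0135, other probe 0.53), Cd22 with 0.61 (adjusted p = 0.0326) and Pou2af1, a B-cell coactivator, with 0.95 (adjusted p = 0.0333). The calls of Cd22 and Pou2af1 were lost under 8 and 9 of 22 other settings. When 1 array was left out, between 1 and 13 passed, with 1 without BALB/c mouse 2 or 3 or C57BL/6 mouse 4. The defining B-cell marker Ms4a1 was detected on 3 of 5 BALB/c and 2 of 5 C57BL/6 arrays and differed by 0.19 (adjusted p = 0.478). Of 15 T-cell genes, 3 were higher in BALB/c and 15 of 15 lay above 0, with a median of 0.50, and 2 to 5 passed with 1 array left out. Itgae, the integrin that holds T cells in the epithelium, was higher by 1.07 (SE 0.18, adjusted p = 2.15e-04), while its other probes gave 0.27, 0.63 and 0.82. Cd3e was higher by 0.85 (SE 0.21, adjusted p = 0.00855).

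Of the cytokine list, 0 of 15 passed in the limma fit and 2 had an unadjusted p under 0.05. Il1b had a difference of 0.70 (SE 0.31, adjusted p = 0.163) and Tgfb1 of -0.06 (SE 0.19, adjusted p = 0.887). Il10, Ifng, Tnf, Il17a and Il6 were not among the genes tested. Of 26 genes of microbial sensing, 2 were higher in BALB/c and 4 in C57BL/6, against 5.36% and 5.74% of all genes. The 4 became 2 with median scaling, without the arrays described at the end and without BALB/c mouse 4 or 5 or C57BL/6 mouse 1, 2 or 3. The 2 became 1 without BALB/c mouse 1, 2 or 4 or C57BL/6 mouse 2, 4 or 5. Tlr6, a partner of the lipoprotein receptor TLR2, was higher in BALB/c by 1.39 (SE 0.15), with 3 of 5 C57BL/6 arrays detected. Ly96, the MD-2 subunit of the endotoxin receptor, was higher in C57BL/6 (difference -1.34, SE 0.15). Nfkb2, an NF-kB subunit, was at least 2.29-fold higher in C57BL/6, with 0 of 5 BALB/c arrays detected (means 4.78 and 6.29).

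**Figure D3:**
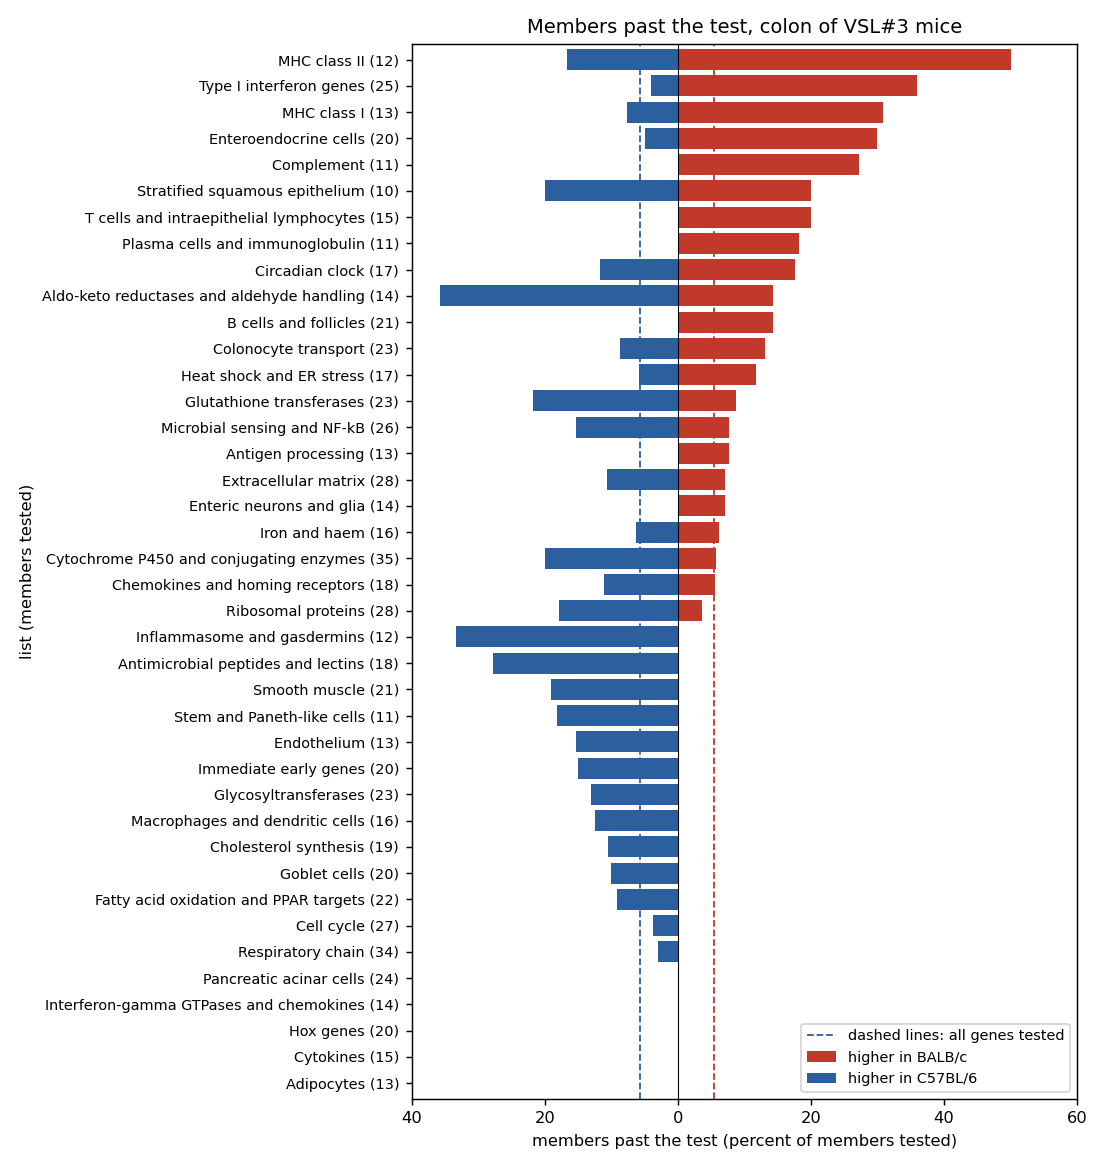
Share of tested members past the test (percent, horizontal axis) for each list with 10 or more tested members (vertical axis, number tested in brackets), to the right for members higher in BALB/c and to the left for members higher in C57BL/6. Dashed lines give the 5.36% and 5.74% of all genes tested, and the MHC class II and type I interferon lists reach farthest to the right.

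Genes of the circadian clock were among those that differed, and here the mice of a group differed among themselves. The clock is a loop in which the activator ARNTL (BMAL1) drives repressors that switch it off, so that its output genes rise and fall over the day. The labels give no hour of collection. Of 17 members tested, 3 were higher in BALB/c, 2 were higher in C57BL/6 and 12 did not pass, with a median of -0.01. In either direction 29.4% of the list passed, against 11.1% of all genes (5.36% higher in BALB/c and 5.74% in C57BL/6). Dbp, an output gene of the clock, was 7.36, 7.60, 8.46, 10.51 and 11.75 in BALB/c mice 1 to 5 and 6.86, 6.86, 6.81, 6.85 and 6.52 in the C57BL/6 mice. BALB/c mice 4 and 5 stood far above mice 1, 2 and 3, and the C57BL/6 mice lay between 6.52 and 6.86. The difference was 2.35 (SE 0.58, adjusted p = 0.00969).

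The repressor Nr1d1 (REV-ERB alpha) was 7.14, 6.77, 7.66, 7.94 and 8.06 in BALB/c and 6.75, 5.78, 6.06, 5.63 and 5.53 in C57BL/6. It differed by 1.56 (SE 0.24, adjusted p = 7.58e-05), without overlap, and its relative Nr1d2 by 1.27 (SE 0.26, adjusted p = 0.00236), where the other probe gave 0.38. The activator Arntl was 9.50, 9.32, 9.01, 8.49 and 7.29 in BALB/c and 9.28, 9.79, 9.59, 9.89 and 9.93 in C57BL/6. It overlapped between the groups and differed by -0.98 (SE 0.28, adjusted p = 0.0253), with BALB/c mice 4 and 5 lowest. Usp2, a clock-driven ubiquitin protease, differed by -1.13 (SE 0.25, adjusted p = 0.00411), with overlap.

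In the source names, mice 1 to 3 of a group carry the letter A and mice 4 and 5 the letter B. BALB/c mice 4 and 5 are also arrays with a high pancreatic score (given at the end). Without the 3 arrays of high score, the difference of Nr1d1 was 1.24 (adjusted p = 0.00330) and that of Usp2 -1.61 (adjusted p = 2.30e-07). That of Dbp was then 1.03 (adjusted p = 0.0503) and that of Arntl -0.42 (adjusted p = 0.142). The call of Dbp was also lost in a fit on these 10 arrays alone (adjusted p = 0.0555). The call of Arntl was lost there too, and without BALB/c mouse 4 or without C57BL/6 mouse 2, 4 or 5. With the source code up to its hyphen, which holds the letter, as a random block, the calls of Dbp, Nr1d1, Usp2 and Arntl were kept. That block uses a correlation shared over all genes (0.006) and not that of each gene. The part of the letter, of the hour and of the pancreatic score in the values of these genes was not tested.

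Of the smooth muscle and ribosomal protein lists, 19.05% and 21.43% passed in either direction, against 11.1% of all genes. Of the cell cycle and respiratory chain lists, 3.70% and 2.94% did. Of 21 smooth muscle genes, 4 were higher in C57BL/6, 0 were higher in BALB/c and 20 lay below 0, with a median of -0.23 (-0.13 with median scaling). Hspb6, a small heat shock protein of muscle, differed by -0.90 (SE 0.14, adjusted p = 7.31e-05) and Pgm5, of muscle adhesion plaques, by -1.13 (SE 0.19, adjusted p = 1.97e-04). Acta2, the smooth muscle actin, did not pass (difference -0.23, adjusted p = 0.197). Of 27 cell cycle genes, 1 passed, the ribonucleotide reductase subunit Rrm1, which was higher in C57BL/6 (difference -0.62, adjusted p = 0.0205), and 24 lay below 0. Its call was lost without BALB/c mouse 3, 4 or 5 or C57BL/6 mouse 2 (adjusted p-values of up to 0.0552), with median scaling (0.0790) and without the 3 arrays described at the end (0.162). Of 34 respiratory chain genes 1 passed, Uqcrb (difference -0.53, adjusted p = 0.0376), whose call was lost under 9 of 22 other settings, and of 20 Hox genes and 13 adipocyte genes 0 passed in the limma fit, with 2 and 0 at an unadjusted p under 0.05. Of the 28 ribosomal protein genes, 1 was higher in BALB/c and 5 in C57BL/6. The 5 became 2 (without BALB/c mouse 4) to 4 with 1 array left out, 2 with median scaling and 3 without the arrays described at the end. Rps2 and Rpl29 differed most, by -1.32 (SE 0.13) and -1.05 (SE 0.09), and the other probe of Rpl29 gave -5.26.

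In mice given PBS in place of VSL#3, the same strain contrast had 1164 genes past the test (11.8%), 598 higher in BALB/c (6.08%) and 566 higher in C57BL/6 (5.76%). The 2 contrasts share no array. Of the 1091 genes that passed in VSL#3 mice, 710 passed in PBS mice in the same direction and 0 in the opposite direction, which is 65.1% of the calls in VSL#3 mice and 61% of those in PBS mice. Of the 273 genes with at least 2-fold differences, 254 passed in PBS mice in the same direction. Of the 1091, 1061 had the same sign in PBS mice and 30 the opposite sign. H2-Ea differed by 7.28 in VSL#3 and 7.29 in PBS mice, Mptx1 by -6.27 and -6.09, Gbp2b by 5.25 and 5.58, Ctsc by -4.93 and -4.55, and Trpm6 by -1.80 and -2.03. Class II members passed as higher in BALB/c in 6 of 12 cases with VSL#3 and 8 of 12 with PBS, B-cell and follicle genes in 3 and 13 of 21, and interferon genes in 9 and 6 of 25.

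The difference of the strain effect between VSL#3 and PBS mice was tested directly. In the limma fit 0 of 9833 genes passed (0%), 448 had an unadjusted p under 0.05, and the smallest adjusted p was 0.539. The 5 genes with the smallest p were Gpsm1 (0.78, SE 0.16), Creb3l2 (0.86, SE 0.18), Tnfrsf19 (-0.81, SE 0.18), Tie1 (-0.87, SE 0.20) and Thap1 (0.84, SE 0.20), with adjusted p-values of 0.539 for the first 3 and 0.633 for the others. Reg3g differed between the strains by -0.35 in PBS mice (adjusted p = 0.806), and its difference of differences was -2.03 (SE 0.84, adjusted p = 0.9995). Without the 3 arrays of high pancreatic score, 2 genes passed, both clock output genes. These were Dbp (-2.84, adjusted p = 0.0251, against -1.52 and 0.9995 with all arrays) and Tef (-2.06, adjusted p = 0.0251, against -1.13 and 0.9995). The arrays left out include VSL#3 BALB/c mice 4 and 5, whereas PBS BALB/c mice 4 and 5 stayed in the fit. A score over the clock list, made like the pancreatic score, was 0.31 and 0.69 in the former and 0.29 and 0.51 in the latter. These were the highest scores of each group. Whether the 2 calls come from this uneven removal was not tested. Without C57BL/6 PBS mouse 4, 1 gene passed, Sprr2b (1.53, adjusted p = 0.0352). These 3 genes are named because they are all that passed.

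**Figure D4:**
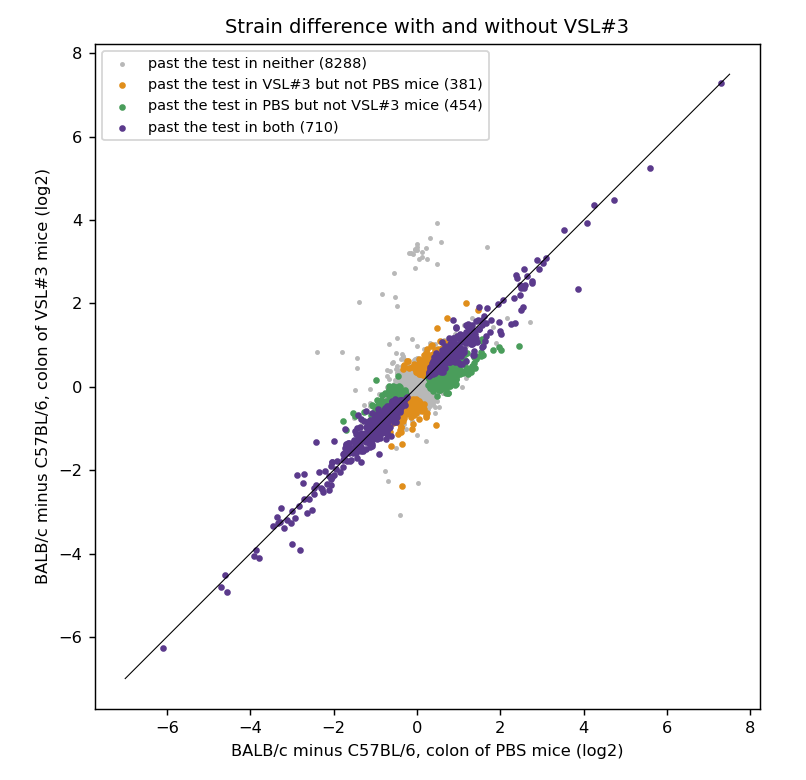
Strain difference of each gene (BALB/c minus C57BL/6, log2) in the colon of VSL#3 mice (vertical axis) against that in PBS mice (horizontal axis), coloured by the test passed, with the line of equal differences. The 710 genes past the test in both lie in the lower left and the upper right. The grey points near 0 on the horizontal axis and near 3 on the vertical axis include the pancreatic acinar genes, of which 0 of 24 passed.

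In the small intestine of the same VSL#3 mice, 1209 of 9634 genes passed (12.5%), 625 of them higher in BALB/c (6.49%). Of 9205 genes tested in both tissues, 525 passed in both in the same direction and 3 in opposite directions, and the shared calls were 49.6% of those in colon and 45.4% of those in small intestine. In VSL#3 colon, PBS colon and VSL#3 small intestine alike, 431 genes passed in the same direction, 186 higher in BALB/c and 245 higher in C57BL/6. The test of each mouse's colon minus small intestine difference passed for 259 of 9200 genes (2.82%), 114 above 0 (1.24%) and 145 below 0 (1.58%). Leaving out single colon arrays of the 2 groups gave between 152 (without C57BL/6 mouse 5) and 217 genes, and 148 passed without the arrays of high pancreatic score.

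Mptx1, Nxpe4, Cbr3 and Trpm6 differed between the strains in colon and little in small intestine. Mptx1 had strain differences of -6.27 in colon and -0.39 in small intestine (difference of the differences -5.88, SE 0.57, adjusted p = 1.60e-06), and Nxpe4 of -4.81 and -0.48 (-4.33, SE 0.22, adjusted p = 9.58e-11). In small intestine Nxpe4 was detected on 0 of 5 BALB/c and 2 of 5 C57BL/6 arrays, and in colon on 2 of 5 BALB/c arrays, so these sizes are set in part by background. Cbr3 had -2.68 and 0.17 (-2.85, SE 0.23, adjusted p = 1.09e-07), and Trpm6 -1.80 and 0.38 (-2.18, SE 0.31, adjusted p = 3.02e-04). Mptx1 was near 6 in the small intestine of both strains (means 5.95 and 6.34), so its level in C57BL/6 colon, 13.24, was the high value among the 4. Cfl2, a muscle cofilin, showed the reverse, with 0.03 in colon and -6.18 in small intestine (6.21, SE 0.21, adjusted p = 5.32e-14). Under 22 other settings the tissue difference of Cfl2 lay between 3.07 and 6.70, and its call held. Serpina1b was higher in BALB/c colon, with 0 of 5 C57BL/6 colon arrays detected, and differed by -0.80 in small intestine, where it was detected in both strains.

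Gbp2b differed in both tissues, by 5.25 in colon and 2.36 in small intestine. The Paneth cell defensin genes Defa31 and AY761185 were higher in BALB/c small intestine, by 8.09 and 8.07, and Defa22 was higher in C57BL/6 small intestine (difference -7.79), with colon differences of 0.83, 0.84 and -2.30. These defensins are near-identical copies, and which copy a probe reads is uncertain. The call of the tissue difference was lost without the arrays of high pancreatic score for Defa31 and for Defa22, which also lost it without BALB/c mouse 3 or 5 or C57BL/6 mouse 5 (adjusted p-values of up to 0.0765 and 0.120). The 3 genes that passed in opposite directions in the 2 tissues were Ccdc28b (-0.73 in colon and 0.47 in small intestine), Ces1f (-1.48 and 0.62) and Grasp (-0.58 and 0.64), named because they are all of that kind.

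**Figure D5:**
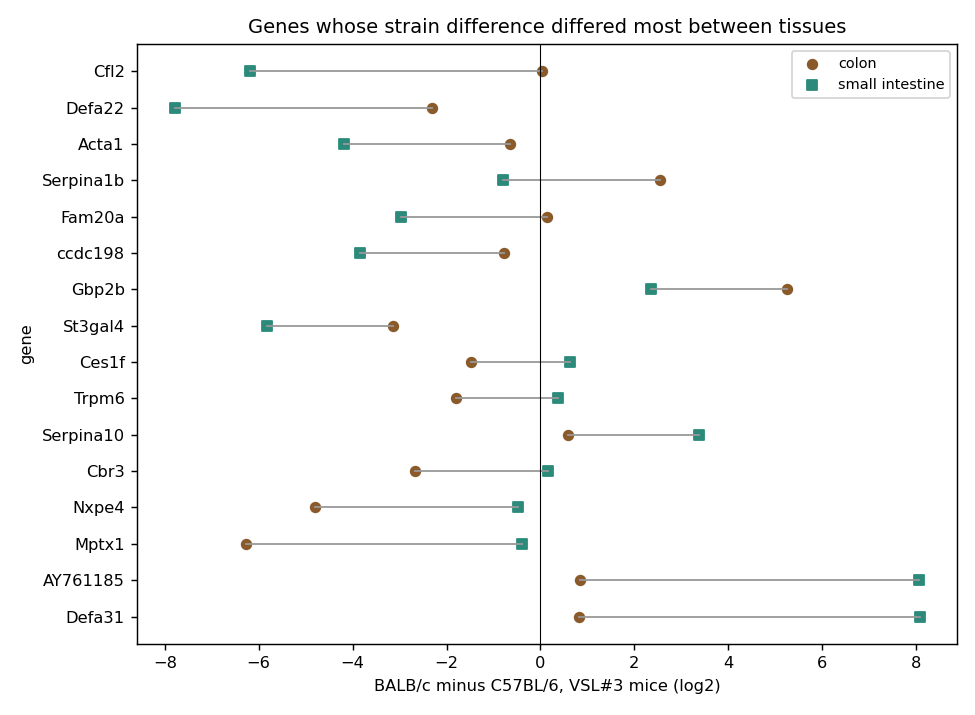
Strain difference in VSL#3 mice (BALB/c minus C57BL/6, log2, horizontal axis) in colon (circles) and small intestine (squares) for the 8 genes with the largest positive and the 8 with the largest negative difference between the tissues. Mptx1, Nxpe4, Cbr3 and Trpm6 lie far left in colon and near 0 in small intestine, and Cfl2 the reverse.

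Genes that passed lay beside each other in the genome more often than the rest. In the gene order of GRCm38.p6, 33.5% of the genes that passed had a tested neighbour that also passed, against 18.7% of the genes that did not pass. For 21.2% a passing neighbour had the same direction and for 14.4% the opposite direction. In the MHC, H2-Ob, H2-Aa and H2-Eb1 lie in 1 run with H2-Ab1, with differences of -1.37, -3.76 and 0.99, and H2-Ab1 is given no direction. Ly6g6c, Ly6g6d and Ly6g6e (2.83, 1.18 and 1.53) are followed by Abhd16a (-4.52). Ppy and Pyy, which code for related gut hormones, were both higher in BALB/c, by 1.41 and 0.73.

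Probes of the same gene often gave different sizes. Of 527 genes higher in BALB/c, 145 had another kept probe. For 78 of these (53.8%) such a probe showed under 50% of the difference, and for 32 the opposite sign. Of 564 genes higher in C57BL/6, 155 had another probe, with 76 (49.0%) under 50% and 32 of the opposite sign.

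The 10 arrays were not alike in pancreatic RNA. A score over 24 tested genes of pancreatic acinar cells, the average of log2 values after the mean of each gene over the 20 colon arrays was taken off, was -1.70, -1.54, -0.09, 5.46 and 5.00 in BALB/c mice 1 to 5 and -1.44, -1.36, -1.48, -1.50 and 0.02 in the C57BL/6 mice. BALB/c mice 4 and 5 were high, as was 1 PBS mouse, C57BL/6 mouse 3 (4.98). The defining gene Cela2a, a pancreatic elastase, reached 15.28 in BALB/c, with a lowest value of 4.84, and 9.61 in C57BL/6, with a lowest value of 4.81. Of the list, 24 of 24 lay above 0 with a median of 3.10, and 0 passed in the limma fit, with 5 at an unadjusted p under 0.05. Without these 3 arrays the list median was 0.13, and 775 genes passed in the strain contrast, of which 715 were among the 1091. The interferon list then had 16 members higher in BALB/c and 1 higher in C57BL/6, and the class II list 7 and 2. The part of pancreatic RNA in the other differences was not tested.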

How the data were processed

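Total RNA of colon and small intestine from 20 mice was measured on 40 Illumina MouseRef-8 arrays. The deposited values of each probe are intensities that the file names as not normalized, and 21.4% to 25.1% of them lie below 0 on these arrays, as values do after a background is subtracted. Beside each stands a deposited detection value, taken as 1 minus the detection p-value. A second deposited table holds normalized log2 values, used only to match its columns to the arrays. Limma is named in the submitters' processing notes, with no version or role, and the normalization of the authors is not given in the sources used here.

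Here intensities were background-modelled, quantile-normalized over 40 arrays and put on the log2 scale with neqc of limma 3.58.1 in R 4.3.3 (offset 16). A probe was kept when its detection p was under 0.05 on at least 5 of 20 colon arrays, and the brightest kept probe stood for a gene. The platform annotation gave 1 symbol to 23978 of 25697 probes and none to 1719. The 4 treatment and strain means were fitted with limma over the 20 arrays of a tissue, and tissues were compared over each mouse's colon minus small intestine difference. P-values were adjusted over all genes tested. A fold is given as "at least" where a group was detected on none of its arrays. It sets the higher mean against the lowest signal of a detected probe on each dim array, or the probe's own signal there if higher. The labels list 5 mice per group, and the number of arrays limits the precision. The fits were tested on simulated data.

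Genes to name were the 15 largest differences without overlap in each direction and the 4 smallest p-values among passing members of each list. Also chosen were 7 textbook genes that check strain, sex or tissue, and cytokines of interest. The 5 smallest p-values for the treatment contrast and the 8 largest tissue differences in each direction completed the choice. Not all genes so chosen are given above. Among those left out are Msmo1, Ly6e and Atf4, higher in C57BL/6, and Cd59a and Hspa8, higher in BALB/c. Other genes were named after their values were seen. The members and the 47 lists were chosen with earlier results of these data known. Mouse numbers do not pair the groups: deviations of same-numbered colon arrays correlated with r of 0.03 to 0.33, and 2 of 5 were over 0.1.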

Additional observations from a re-analysis of the deposited data

Results flagged for a closer look

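Of 334 groups of 5 mice tested for a single array far from the others, 19 held one, 8 in BALB/c and 11 in C57BL/6, and chance marks about 1 group in 20. In BALB/c these were Rmdn3 (6.63 in mouse 2), Mgat3 (7.26) and Col1a2 (7.07) in mouse 5, H2-Q7 (8.46 in mouse 5), Rrm1 (8.09), Rpl30 (11.05) and Scg3 (5.29) in mouse 1, and Rpl29 (10.92 in mouse 3). In C57BL/6 they were Creld2 (9.51), Fcgr3 (6.62) and Hsph1 (9.52) in mouse 1, Hspb6 (10.49 in mouse 2), Cx3cl1 (8.69) and Gstm2 (11.83) in mouse 3, and Ly96 (7.86), Mmp2 (9.31) and Mmp9 (6.02) in mouse 4. In C57BL/6 mouse 5, Dbp (6.52) and the pancreatic score (0.0238) stood apart. All are log2 normalized intensities except the score.

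The strain difference in colon minus that in small intestine passed the test, as an interaction within mice, for the following genes. It was above 0 for Cfl2 (6.21), Defa22 (5.49), the skeletal actin Acta1 (3.54), Serpina1b (3.35), Fam20a (3.11), ccdc198 (3.08), Gbp2b (2.89) and St3gal4 (2.70), a sialyltransferase. It was below 0 for Defa31 (-7.26), AY761185 (-7.23), Mptx1 (-5.88), Nxpe4 (-4.33), Cbr3 (-2.85), Serpina10 (-2.78), Trpm6 (-2.17) and Ces1f (-2.10). Several of these sizes are set in part by arrays without detected signal. The undetected groups were the C57BL/6 colon for Serpina1b and the BALB/c small intestine for ccdc198, St3gal4 and Nxpe4, each with 0 of 5 arrays detected. For Acta1, Fam20a and ccdc198 the strains differed more in small intestine, where C57BL/6 was higher by its means (9.48, 8.92 and 8.66 against 5.29, 5.96 and 4.81).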

How the results depend on the processing

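Over 12 other settings and each colon array left out in turn, 3717 of 4032 values for 182 gene results kept their direction and side of the threshold, 305 lost the call, 7 gained it and 3 reversed. The reversals were H2-Ab1 with the mean of its probes (-0.10) and Tgfb1, which did not pass, with array weights (0.0130) and without C57BL/6 mouse 4 (0.0395, in a range of -0.195 to 0.0395 with 1 array left out). The strain contrast in VSL#3 colon called 775 to 1268 genes under other settings, and 861 (without BALB/c mouse 3) to 1112 with 1 array left out. With 1 array left out, 401 to 567 genes were higher in BALB/c, 460 to 545 were higher in C57BL/6, 259 to 286 were at least 2-fold and 117 to 152 list members passed. The same range was 962 to 1131 for PBS mice, 975 to 1233 for small intestine, 0 to 1 for the treatment contrast and 152 to 217 for the tissue contrast. Without the 3 arrays of high pancreatic score, a setting chosen after seeing the data, the treatment contrast called 2 and the tissue contrast 148 genes, with fewer arrays in the fit. Median scaling moved the genes higher in C57BL/6 to 366, with 57.8% of calls higher in BALB/c against 48.3%, and the median of all genes from 0.01 to 0.05, and it turned the median of the glutathione transferases from -0.05 to 0.04. The cause was not tested. The mouse number as a replicate block gave 1006 calls and 2 of 5 arrays correlated best with their own number, a hint from the data and not the design. The source code up to its hyphen, which holds the letter A or B, gave 1075 as a random block. Probes near background limit the smaller differences.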
